A study of Solanum tuberosum with 72 samples.

Results

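Potato roots kept at 35 °C for 27 h were compared with roots of plants that met no stress for the same 27 h. The comparison uses 6 of the 72 arrays of the series, 3 for heat and 3 for no stress, chosen by their titles and not by any measured value, with every clone that had a value. The plants were seedlings of Solanum tuberosum, variety Gilroy, raised from true seed for 5 weeks on rafts over hydroponic medium at 25 °C with 16 h of light and 8 h of dark. For heat, the medium was exchanged for medium warmed to 35 °C and the boxes stood in a water bath at that temperature. For no stress, the medium was exchanged in the same way and the plants stayed at the growth temperature. Each sample pooled 6 plants from 2 boxes, roots were cut from the aerial parts before freezing, and the labels state that the experiment was run independently 3 times. Roots heated for 3 h and 9 h, leaves heated for 27 h, each with no-stress arrays of its own time and tissue, and roots at 4 °C for 27 h are used for comparison, with 3 arrays a group.

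Every array held 2 RNAs on spotted cDNA clones. Heated or unstressed roots (the query) carried Cy3 and pooled control roots of the same time (the reference, from 6 boxes) carried Cy5, with no dye swap. A value is the log2 ratio of the 2 channels, averaged over the 2 spots of a clone. A positive value was read as higher in the query. This direction rests on the naming of the channels and is not stated in the file, so it is likely rather than settled, and every higher and lower would trade places if it were reversed. Ratios carry no absolute level, so the root identity of the samples could not be checked against tissue markers. A bulk ratio also cannot tell fewer cells of a type apart from less RNA per cell.

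Heat replicate 1 stood apart from the other arrays. Its log2 ratios had an SD of 0.751 over clones and 12% of them lay beyond 1 in either direction. In heat replicates 2 and 3 the SD was 0.486 and 0.438, against 0.265, 0.315 and 0.341 in no stress replicates 1, 2 and 3. Heat arrays correlated with one another at r = 0.70, 0.59 and 0.62 over clones, and no-stress arrays at 0.45, 0.39 and 0.53. The arrays had values for 8956 to 9578 clones.

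As background, roots import sucrose from the shoot and use it for respiration, growth and transient starch. Starch is built from ADP-glucose by ADP-glucose pyrophosphorylase and the starch synthases, and it is opened for breakdown by glucan phosphorylation and cut by amylases. Roots of hydroponic seedlings can be lit, and lit roots can carry plastids with photosynthetic transcripts. High temperature is known to induce heat-shock chaperones and to alter starch metabolism in potato.

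After 27 h at 35 °C, 8 of 14 clones for photosystems and light harvesting fell in roots, all of cab1, PSBO and psbP. So did 6 of 9 for carbon reduction, triose export and photorespiration and 3 of 8 for starch synthesis. Without heat replicate 1, only 3 of the 14 photosystem clones and 1 of the 9 carbon clones fell. With only the 6 arrays in the fit, 0 of the 14 and 1 of the 9 fell. Of 6 clones for starch breakdown 4 rose. These starch subgroups were split after the values were seen, and in the whole starch and sucrose list 4 of 23 clones rose and 6 fell. All lists were chosen with earlier results of these data known. Their counts beside the share over all clones are therefore a description. Among the leading clones of named genes (for each gene, the clone with most values) the lowest were isi1 (a gene named in Arabidopsis for impaired sucrose induction), cab1 (a chlorophyll a/b-binding protein) and IPMK (inositol polyphosphate multikinase), which differed from no stress by -2.89, -2.84 and -2.81 on the log2 scale. The highest of these leading clones were AMYA1 (an alpha-amylase) at 1.15 and eIF5A5 (a translation factor) at 0.96. Over all clones, 1815 of 8975 tested (20.2%) passed an adjusted p of 0.05 by limma, 913 higher (10.2%) and 902 lower (10.1%). The falls were the larger changes. The clones that fell had a median size of 0.80 and 310 of them moved by more than 1, whereas the clones that rose had a median of 0.59 and 89 moved by more than 1. The heat and no-stress arrays did not overlap for 841 of the 913 clones that rose and for 782 of the 902 that fell, where 17.9% and 15.8% of all tested clones separated in those directions.

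The number of calls rested on the spread shared over all 36 root arrays. When only these 6 arrays entered the fit, 123 clones passed, 122 of them among the 1815. Without heat replicate 1 there were 734 calls, without no stress replicate 2 there were 1166 and without no stress replicate 3 there were 1157. In the 6-array fit, of 65 passing clones of the genes named here, 12 kept their calls. They are the leading clones of isi1, IPMK, VPE2, agpS3, GCVT, CO and HXKRP1 (a hexokinase-related protein, -0.95), 1 clone each of GBSS and MS, and all 3 clones of SI1. Every other named call below ended in that fit.

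**Figure D1:**
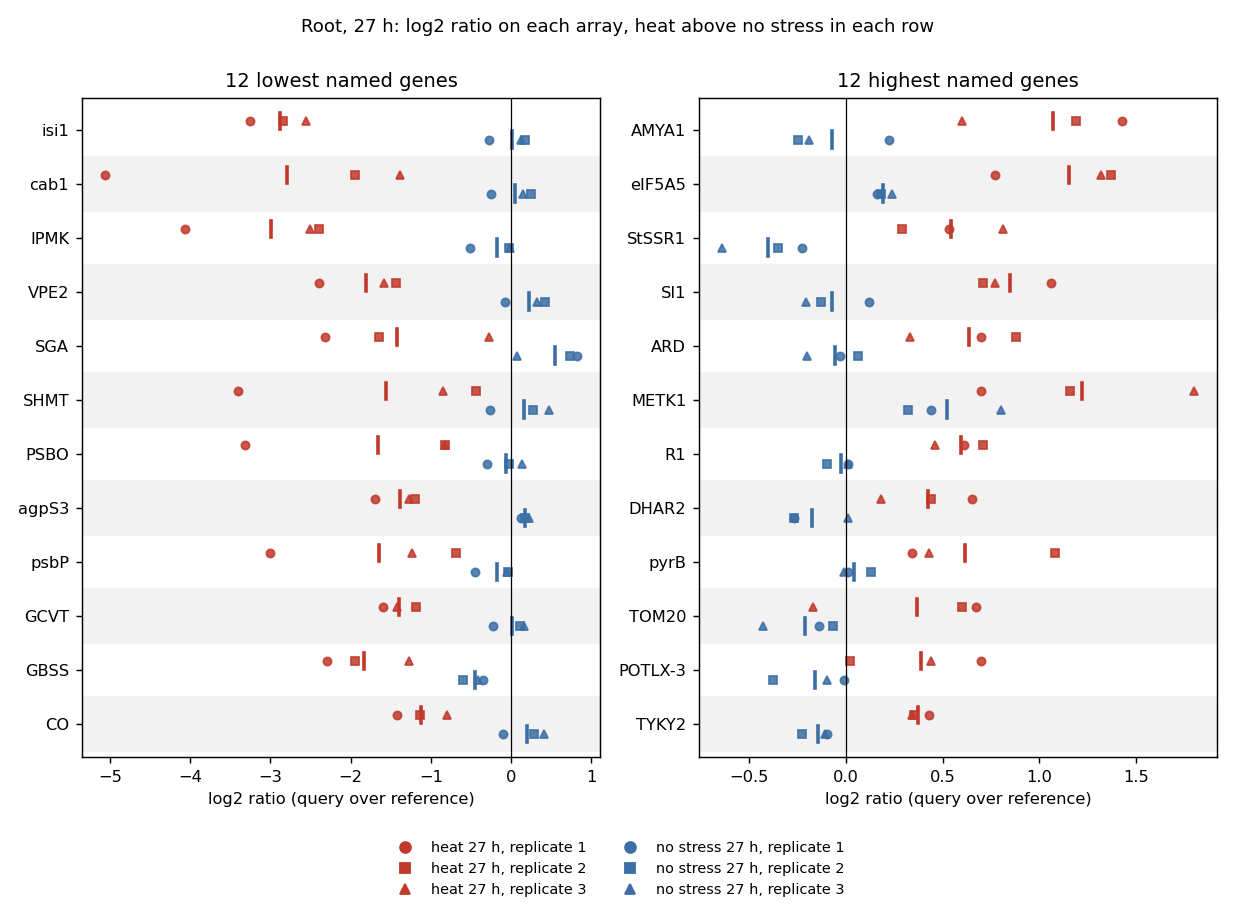
Log2 ratio (horizontal axis) of the leading clone of the 12 lowest (left) and 12 highest (right) named genes on each array, with heat 27 h above no stress 27 h in each row, symbols for replicates and a vertical tick at the group mean. For isi1 the 3 heat arrays lie between -3.25 and -2.56, all below the no-stress arrays, whereas for cab1 heat replicate 1 at -5.06 lies far below the other 2 heat arrays. The 2 panels have different scales.

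The clone of isi1 had log2 ratios of -3.25, -2.84 and -2.56 in heat replicates 1, 2 and 3, against -0.28, 0.18 and 0.13 in no stress replicates 1, 2 and 3. The 3 heat arrays lay close together and far below all no-stress arrays. The difference was -2.89 ± 0.41 (SE, 3 arrays each), a 7.42-fold fall with an adjusted p of 2.27e-05, and it stayed past the threshold under every alternative tried (highest adjusted p 0.00507). IPMK, which phosphorylates inositol phosphates, had -4.06, -2.40 and -2.51 in heat, against -0.51, -0.02 and -0.01 in no stress. All heat arrays were low, with replicate 1 the lowest, and the difference was -2.81 ± 0.43 (adjusted p 4.69e-05). VPE2, a vacuolar processing enzyme, had -2.40, -1.43 and -1.58 in heat, against -0.07, 0.43 and 0.32 in no stress, a fall by 2.03 ± 0.38 (adjusted p 0.000663).

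Light-harvesting and photosystem genes were represented by 14 tested clones of 4 genes. Of these clones 8 fell, none rose and 6 did not pass, with a median difference of -1.47, against 0.014 over all clones tested. Over all clones 10.1% fell and 10.2% rose. All 4 clones of cab1, both of PSBO and both tested clones of psbP fell. PSBO and psbP are proteins of the oxygen-evolving complex of photosystem II. The leading clone of cab1 had -5.06, -1.94 and -1.38 in heat, against -0.25, 0.25 and 0.15 in no stress. Heat replicate 1 was the lowest by a wide margin and the other 2 heat arrays were also below every no-stress array. The difference was -2.84 ± 0.58 (adjusted p 0.00124), and the other 3 clones differed by -2.96, -3.32 and -2.33.

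PSBO showed the same arrangement of arrays, with -3.32, -0.82 and -0.82 in heat, against -0.30, -0.03 and 0.14 in no stress (difference -1.59 ± 0.44, adjusted p 0.0122). For psbP the values were -3.01, -0.69 and -1.23 in heat, against -0.45, -0.04 and -0.05 in no stress (difference -1.46 ± 0.39, adjusted p 0.00876). None of the 6 clones of PSBR, a further photosystem II protein, passed, and they did not behave alike. Clones 1 and 4 differed by 0.20 and 0.09, and clones 2, 3, 5 and 6 by -0.66, -0.52, -0.71 and -0.66.

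Heat replicate 1 carried much of the size of these falls. The median log2 ratio of the 14 clones was -3.01, -0.67 and -0.99 in heat replicates 1, 2 and 3, against -0.28, 0.30 and 0.12 in no stress. Without heat replicate 1, 3 of the 8 clones still passed, all of cab1. The PSBO clones then differed by -0.76 (adjusted p 0.177) and -1.02 (adjusted p 0.0519), the psbP clones by -0.78 and -0.77 (adjusted p 0.143 and 0.0808), and cab1 clone 4 by -1.58 (adjusted p 0.053). The array numbered 1 was also the lowest in heat at the earlier times, with list medians of -1.09, -0.27 and -0.05 at 3 h and -1.11, 0.38 and -0.05 at 9 h. Values this low are coarse, because 426 of the 604 spot values under -2 on these 6 arrays match, to within 0.001, a ratio rounded to 2 decimals. The value of -5.06 is a ratio of 0.03, and its neighbours 0.04 and 0.02 lie at -4.64 and -5.64. How much shoot or lit-root tissue each sample held was not measured, and its part in these values was not tested.

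**Figure D2:**
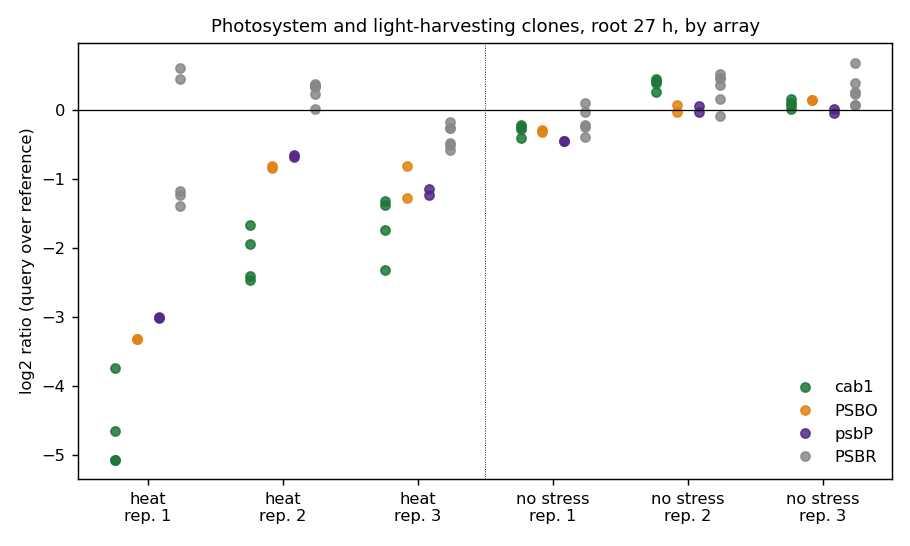
Log2 ratio (vertical axis) of each tested photosystem and light-harvesting clone on the 3 heat 27 h arrays and the 3 no stress 27 h arrays, coloured by gene, each point the mean of the spots of 1 clone. The cab1 clones lie between -5.06 and -3.74 in heat replicate 1 and above that in heat replicates 2 and 3, and all no-stress points of cab1 lie between -0.41 and 0.44.

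Genes of carbon reduction, triose export and photorespiration gave 9 tested clones, of which 6 fell and none rose, with a median of -0.72. Over all clones 10.1% fell and 10.2% rose. The number of the 9 that fell was 1 without heat replicate 1, 3 without no stress replicate 2 and 1 without no stress replicate 3. GCVT, the T protein of the glycine cleavage system, had -1.60, -1.18 and -1.42 in heat, against -0.23, 0.11 and 0.16 in no stress. The heat arrays were close together and the fall was by 1.41 ± 0.21 (adjusted p 3.56e-05). SHMT (serine hydroxymethyltransferase, which takes up the product of that system) had -3.40, -0.43 and -0.85 in heat, against -0.26, 0.27 and 0.48 in no stress. Its fall by 1.73 ± 0.52 (adjusted p 0.0198) leaned on heat replicate 1, without which the difference was -0.81 (adjusted p 0.263). It also missed the threshold without no stress replicate 2 or 3 (adjusted p 0.0603 and 0.0755). Both clones of TK (transketolase) fell, by 0.72 and 1.01, 1 of 2 clones of TPT (the triose phosphate translocator) fell by 1.14, and LPD2 fell by 0.33. The leading TPT clone differed by only -0.16 (adjusted p 0.678). The calls of TK, TPT and LPD2 ended without heat replicate 1 (adjusted p 0.0687 to 0.245) and without no stress replicate 3 (0.0658 to 0.155), and those of TPT and LPD2 also without no stress replicate 2 (0.0682 and 0.0932). LPD2 missed the threshold without heat replicate 2 as well (adjusted p 0.108). RPE (ribulose-phosphate 3-epimerase) differed by -0.72 and -0.65 in its 2 clones and did not pass.

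The starch and sucrose list gave 23 tested clones, of which 4 rose and 6 fell, with a median of 0.17. Over all clones 10.2% rose and 10.1% fell. The list was split into starch synthesis, starch breakdown and sucrose after the values were seen, so the split is only a description. In that split, the breakdown clones that passed (of AMYA1, R1 and dpeP) and the synthesis clones that passed (of agpS3 and GBSS) lay on opposite sides. Of 6 tested clones for breakdown 4 rose and none fell, with a median of 0.52. Of 8 tested clones for synthesis 3 fell and none rose, with a median of -0.08. AMYA1 had 1.43, 1.19 and 0.60 in heat, against 0.22, -0.25 and -0.19 in no stress. Every heat array was above every no-stress array, and the difference was 1.15 ± 0.21, a 2.22-fold rise (adjusted p 0.000333). R1, the glucan water dikinase that phosphorylates starch, rose by 0.62 in both clones. Its leading clone had 0.61, 0.71 and 0.46 in heat, against 0.01, -0.10 and 0.01 in no stress (SE 0.15, adjusted p 0.00498). Of the 2 clones of dpeP, the disproportionating enzyme that acts on maltooligosaccharides, 1 rose by 0.43 (adjusted p 0.038) and the other differed by 0.32 (adjusted p 0.172). The call of dpeP ended when any 1 of the 6 arrays was left out (adjusted p 0.0552 to 0.114), and the heat arrays alone gave 0.25 against 0 (adjusted p 0.0623). The tested clone of glgP (a glucan phosphorylase) differed by 0.28 (adjusted p 0.416).

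On the synthesis side, agpS3, a small subunit of ADP-glucose pyrophosphorylase, had -1.69, -1.20 and -1.27 in heat, against 0.12, 0.17 and 0.23 in no stress. Both groups were tight and well apart, and the fall was by 1.56 ± 0.21 (2.95-fold, adjusted p 1.45e-05). GBSS, the granule-bound synthase that makes amylose, had -2.29, -1.95 and -1.27 in heat, against -0.35, -0.60 and -0.41 in no stress (difference -1.38 ± 0.21, adjusted p 4.4e-05), and its other clone fell by 0.93. Not all genes of synthesis moved with them. agpS2, another small-subunit gene, differed by 0.23 (adjusted p 0.224), the 2 clones of the starch synthase SS2 by 0.17 and 0.23, and SBE1, a branching enzyme, by 0.67 (adjusted p 0.175) with 1.92 in heat replicate 1 and 0.61 and 0.22 in the others.

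Of 9 tested clones for sucrose use, synthesis and transport 3 fell and none rose, with a median of -0.20. Over all clones 10.1% fell and 10.2% rose. InvCD111, a cell-wall invertase, had -1.60, -0.21 and -0.14 in heat, against 0.55, 0.40 and 0.48 in no stress. All heat arrays were lower, but replicate 1 set most of the fall by 1.12 ± 0.28 (adjusted p 0.00596). Without that array the difference was -0.65 (adjusted p 0.102). Both clones of FBPase, the cytosolic fructose-1,6-bisphosphatase on the way to sucrose, fell by 1.0 and 0.90. Their calls ended without heat replicate 1 (adjusted p 0.0798 and 0.0848) and without no stress replicate 3 (0.0553 and 0.0762). The sucrose synthase SS16 differed by 0.67 and 0.91 in 2 clones (adjusted p 0.131 and 0.0749), with heat values from -0.55 to 1.52, so its heat arrays spread by more than the difference.

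**Figure D3:**
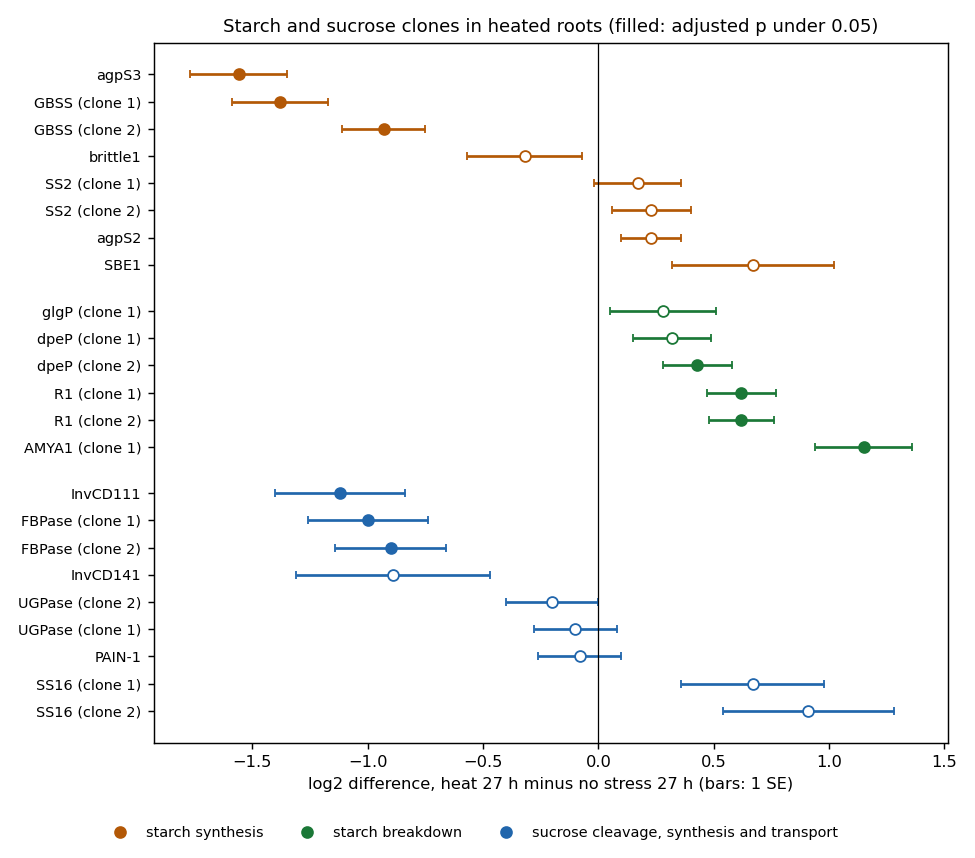
Log2 difference between heat 27 h and no stress 27 h (horizontal axis, bars of 1 SE from the fit) for each tested clone of starch synthesis, starch breakdown and sucrose metabolism, filled where the adjusted p was under 0.05. The filled breakdown clones lie between 0.43 and 1.15 and the filled synthesis clones between -1.56 and -0.93.

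The methionine cycle makes S-adenosylmethionine for methylation, polyamines and ethylene, and its salvage branch returns the sulphur. Of 22 tested clones 2 rose and 5 fell, with a median of -0.38, where 10.2% of all clones rose and 10.1% fell. Without heat replicate 1 the list had 2 clones that rose and 1 that fell, and without heat replicate 3 it had 1 that rose and 9 that fell. MS (methionine synthase) fell in 3 of 5 clones. Its leading clone had -1.43, -1.27 and -0.75 in heat, against 0.06, -0.17 and -0.41 in no stress (difference -0.97 ± 0.24, adjusted p 0.00556, and 0.0501 without heat replicate 1). SAMDC (S-adenosylmethionine decarboxylase, a step towards polyamines) fell in 2 of 8 clones, by 0.54 and 0.80. Another 5 of its clones differed by -0.40 to -0.61 without passing, and the remaining clone by 0.18. Without heat replicate 1 the 2 SAMDC calls ended (adjusted p 0.14 and 0.168), and 1 ended without no stress replicate 1 (0.0764). A second MS clone also missed the threshold without heat replicate 1 (adjusted p 0.0609).

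In the same pathway, ARD (acireductone dioxygenase of methionine salvage) had 0.70, 0.88 and 0.33 in heat, against -0.03, 0.06 and -0.20 in no stress. It rose by 0.70 ± 0.17 (adjusted p 0.00574), and no array left out ended the call. METK1, an S-adenosylmethionine synthetase, had 0.70, 1.16 and 1.80 in heat, against 0.44, 0.32 and 0.80 in no stress. Heat replicate 1 lay below no stress replicate 3, so the groups overlapped. The difference of 0.70 ± 0.20 (adjusted p 0.0143) missed the threshold without heat replicate 3 (0.41, adjusted p 0.115) and without no stress replicate 2 (adjusted p 0.0741), and it was 0.32 (adjusted p 0.288) with array scales equalized. METK2, a further synthetase, differed by -0.26 (adjusted p 0.575). Probes of near-identical family members may share target RNA, and this was not tested.

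Few annotated clones stood for heat-shock chaperones, and small heat-shock proteins were not analysed here. Of 4 tested clones of the co-chaperone dnaJ 1 fell, by 0.53 (adjusted p 0.00144), and its leading clone differed by -0.02. None of 8 cyclophilin clones passed. Over all clones 10.2% rose and 10.1% fell, so nothing is read from the dnaJ and cyclophilin counts about these lists. The single Lea clone, a late embryogenesis abundant protein, had -0.75, -0.89 and -0.37 in heat, against 0.20, 0.23 and 0.16 in no stress. The groups were well apart and it fell by 0.87 ± 0.22 (adjusted p 0.00583).

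Mitochondrial genes gave 26 tested clones, of which 3 rose and 2 fell, with a median of -0.08. Over all clones 10.2% rose and 10.1% fell, so nothing is read from these counts about the list. TYKY2, a subunit of respiratory complex I, had 0.43, 0.35 and 0.34 in heat, against -0.10, -0.23 and -0.11 in no stress. The replicates were tight on both sides and the rise was 0.52 ± 0.12 (adjusted p 0.00402). TOM20, an import receptor of the outer membrane, had 0.67, 0.60 and -0.17 in heat, against -0.14, -0.07 and -0.43 in no stress, so the groups overlapped. Its difference of 0.57 (adjusted p 0.0223) missed the threshold on leaving out heat replicate 1 (adjusted p 0.17), heat replicate 2 (0.101) or the no-stress array numbered 3 (0.112). Of 2 Aconitase clones 1 rose by 0.34, a call that survived only the loss of no stress replicate 1 among the 6 single arrays (adjusted p 0.0502 to 0.132 otherwise), and its heat arrays alone gave 0.14 against 0 (adjusted p 0.167). The 2 called clones of ant, an ADP/ATP carrier, fell by 0.39 and 0.58, and the first of them missed the threshold without any 1 of the 6 arrays (adjusted p 0.0592 to 0.176).

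Of 8 antioxidant clones 2 rose and none fell, where 10.2% of all clones rose and 10.1% fell. Without heat replicate 3 the counts were 3 and 1. No antioxidant clone was called without heat replicate 1 or without no stress replicate 2. DHAR2, a dehydroascorbate reductase that recycles ascorbate, had 0.65, 0.44 and 0.18 in heat, against -0.27, -0.27 and 0.01 in no stress (difference 0.60 ± 0.17, adjusted p 0.0135). A clone of DHAR rose by 0.68 (adjusted p 0.0116), while another DHAR clone differed by -0.09. The calls of DHAR2 and DHAR ended without heat replicate 1 (adjusted p 0.103 for DHAR2 and 0.052 for DHAR) and without no stress replicate 2 (0.0549 for DHAR2 and 0.088 for DHAR). In translation 1 of 8 clones rose. eIF5A5 had 0.77, 1.37 and 1.32 in heat, against 0.16, 0.18 and 0.24 in no stress, a rise of 0.96 ± 0.20 (adjusted p 0.00106), whereas its relative eIF5A1 differed by -0.28 (adjusted p 0.252).

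Of 16 clones of transcription regulators 1 rose and 2 fell, where 10.2% of all clones rose and 10.1% fell. Without heat replicate 3 the counts were 3 and 3, and without heat replicate 1 they were 0 and 1. CO, the potato CONSTANS gene of day-length signalling, had -1.42, -1.14 and -0.80 in heat, against -0.10, 0.29 and 0.41 in no stress, a fall by 1.32 ± 0.21 (adjusted p 6.7e-05). NAC2, of the NAC family, fell by 1.07 ± 0.34 (adjusted p 0.0244), which missed the threshold on leaving out heat replicate 1 (0.143) or the no-stress arrays numbered 2 (0.0768) or 3 (0.107). The leading clone of STWRKY8 differed by 0.67 and did not pass (adjusted p 0.117). Another STWRKY8 clone rose by 1.05 (adjusted p 0.0303) with 1.18, 0.22 and -0.41 in heat, against -0.49, -0.59 and -1.09 in no stress. Its heat arrays spread around 0 and its no-stress arrays lay below 0, and the heat arrays alone gave 0.33 against 0 (adjusted p 0.291). That call ended on leaving out heat replicate 1 (adjusted p 0.271) or the no-stress arrays numbered 2 (0.0553) or 3 (0.13).

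Of 15 clones for kinases and phosphatases 1 rose and 1 fell, where 10.2% of all clones rose and 10.1% fell. StCDPK4, a calcium-dependent kinase, had -0.46, -0.34 and -0.44 in heat, against -0.02, 0.04 and -0.14 in no stress, a small and even fall by 0.37 ± 0.10 (adjusted p 0.0122, and 0.062 without heat replicate 1 and 0.0583 without no stress replicate 2). STK rose by 0.40 (adjusted p 0.0087, and 0.0521 without heat replicate 1), and its heat arrays alone gave 0.18 against 0 (adjusted p 0.0513). The role of STK was not known with certainty, so its place in this list is uncertain. Both tested clones of the 14-3-3 protein 16R fell, by 1.07 and 1.65. The leading one had -0.97, -0.87 and 0.01 in heat, against 0.44, 0.34 and 0.60 in no stress, and 30G, another 14-3-3 protein, differed by -0.31 (adjusted p 0.0975).

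Of 26 clones of defence, proteinase inhibitor and oxylipin genes 1 rose and 5 fell, where 10.2% of all clones rose and 10.1% fell. The falls were those of VPE2, TRI, 1 clone of PIN-II (proteinase inhibitor II, by 0.80, a call that ended at an adjusted p of 0.05 without heat replicate 1) and both clones of SGA. The roles of TRI and SGA were not known with certainty, so their place in this list is uncertain. For the PIN-II clone the heat arrays alone gave -0.32 against 0 (adjusted p 0.0697). The leading SGA clone had -2.32, -1.65 and -0.28 in heat, against 0.82, 0.74 and 0.07 in no stress. Replicate 3 was nearest to 0 in both groups, and the difference was -1.96 ± 0.56 (adjusted p 0.0143). It missed the threshold on leaving out heat replicate 1 (0.122) or the no-stress array numbered 2 (0.0512), and the other SGA clone, measured on 2 arrays a group, fell by 2.67. TRI fell by 0.89 and the lipoxygenase POTLX-3 rose by 0.55, and both calls ended without heat replicate 1 (adjusted p 0.306 and 0.239), no stress replicate 2 (0.105 and 0.163) or no stress replicate 3 (0.204 and 0.0691). That of POTLX-3 also ended without heat replicate 3 (0.0717). In the whole list, none rose and 1 of 23 clones fell without heat replicate 1. Without no stress replicate 2, none rose and 1 of 22 fell, whereas 6 of 23 fell without heat replicate 3.

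Other lists held few or no calls. Over all clones 10.2% rose and 10.1% fell, so nothing is read about these small lists from their counts. None of 7 cell-wall and UDP-sugar clones, 7 phenylpropanoid clones and 7 membrane-transport clones passed, and in glycolysis 1 of 13 rose and 1 fell. The clone that fell there was 1 of GAPDH, by 0.58, and the clone that rose was 1 of PGAM (phosphoglycerate mutase), by 0.45 (adjusted p 0.0482). The GAPDH call ended on leaving out heat replicate 2 (adjusted p 0.154) or the no-stress arrays numbered 1 (0.0964) or 3 (0.0607), and that of PGAM when any 1 array was left out other than heat replicate 1 or no stress replicate 1 (0.102 to 0.238).

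Further members of these lists did not pass at their leading clones. Those with a positive difference were StWRKY16 at 0.70, StWIPK (a wound-induced protein kinase) at 0.46, StMKP1 at 0.45, FDH (formate dehydrogenase), Alpha-MPP (a mitochondrial processing peptidase) and RPL27 (a ribosomal protein) at 0.43 each, SpdSy (spermidine synthase) and PHA1 (a plasma-membrane proton pump) at 0.24 each, and CAT1 (a catalase) at 0.18. Their adjusted p-values ran between 0.108 for Alpha-MPP and 0.633 for CAT1. Those with a negative difference were F3H (flavanone 3-hydroxylase) at -1.39, the invertase InvCD141 at -0.89, STUGE51 at -0.77, PR1B at -0.71, pat1 at -0.62, PEST2 at -0.54, FLS (flavonol synthase) at -0.52, cyp at -0.47, MIP2 at -0.42, GRX2 (a glutaredoxin) at -0.09 and Cyp at -0.03. Their adjusted p-values ran between 0.0668 for STUGE51 and 0.943 for Cyp. For F3H the heat arrays had -2.14, -1.36 and -2.38, against -1.79, -0.51 and 0.59 in no stress, so the groups overlapped. Clones of CAT1 other than the leading one differed by -0.84 (adjusted p 0.181) and -0.02 (adjusted p 0.961).

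Among named genes outside the lists, SI1 rose in each of its 3 clones, by 0.92, 1.07 and 1.08, and the leading clone had 1.06, 0.71 and 0.77 in heat, against 0.12, -0.13 and -0.21 in no stress (adjusted p 0.000835). StSSR1 had 0.53, 0.29 and 0.81 in heat, against -0.23, -0.35 and -0.64 in no stress, a rise of 0.95 ± 0.19 (adjusted p 0.000991). In pyrB (aspartate carbamoyltransferase of pyrimidine synthesis) 2 clones rose, by 0.57 and 1.09, and the first missed the threshold without heat replicate 2 (adjusted p 0.22) or any 1 no-stress array (0.056 to 0.0886). Among genes with several tested clones, 30 of 74 had a called clone, 12 had every clone called and none had clones called in both directions. Of all 306 tested clones with a gene name 24.8% were called. A gene with several clones has several openings for a call, so these counts are a description.

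Most calls have no name here. Of the 1815 called clones, 828 that rose and 804 that fell had no annotation, which is 19.9% of 8197 such clones tested, against 24.8% of 306 clones with a gene name. The lowest clone without annotation had -5.06, -3.12 and -2.74 in heat, against -0.22, 0.20 and 0.39 in no stress, a difference of -3.76. The highest clone with all 3 heat arrays over 2, clone 131167, had 3.14, 2.46 and 3.02 in heat, against -0.12 and 0.70 on the 2 no-stress arrays that measured it (difference 2.58, adjusted p 0.0179).

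The next question was when in the heat treatment these differences appeared. Heat at 3 h gave 671 called clones (7.48%) and heat at 9 h gave 525 (5.89%), each against no-stress arrays of its own time, which share no array with those at 27 h. Of the clones called at 27 h, the direction was the same at 3 h for 89.1% of those higher and 88.7% of those lower, and at 9 h for 91.9% and 90.3%. Over all clones tested at both times the share with the same sign was 69.1% at 3 h and 71.8% at 9 h. These clones were chosen by their call at 27 h, which favours their size there, so the medians are given as a description. Among those also tested earlier, clones higher at 27 h had a median of 0.58 there, 0.27 at 3 h and 0.32 at 9 h, and clones lower had -0.80, -0.36 and -0.33.

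A direct test of the difference in heat effect called 15 of 8726 clones (0.172%) between 27 h and 3 h and 3 of 8658 (0.0347%) between 27 h and 9 h, none of them named. These counts moved with single arrays, to between 3 and 92 for the first and between 3 and 30 for the second, with the highest of each on leaving out heat 27 h replicate 3. VPE2 differed by -2.40 at 3 h, -1.94 at 9 h and -2.03 at 27 h and passed at each time. agpS3 likewise fell at each time, by 0.95, 0.75 and 1.56. AMYA1 differed by -0.03 at 3 h (adjusted p 0.956), rose by 0.78 at 9 h and by 1.15 at 27 h, and its change of effect between 3 h and 27 h was 1.18 (adjusted p 0.089). R1 differed by -0.02 at both earlier times, and its change between 3 h and 27 h was 0.64 (adjusted p 0.215). CO fell by 1.33 at 3 h, differed by -0.11 at 9 h (adjusted p 0.826) and fell by 1.32 at 27 h. If the treatments began at the same hour, 3 h and 27 h fell at the same time of day and 9 h did not. Between 9 h and the other times, heat duration and time of day cannot then be told apart. isi1 and cab1 differed by -0.84 each at 3 h and did not pass before 27 h, with changes of -2.05 and -2.01 between 3 h and 27 h (adjusted p 0.13 and 0.349). With equalized array scales the test between 27 h and 9 h called 14 clones, 14.3% of them higher, against 33.3% of the 3.

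**Figure D4:**
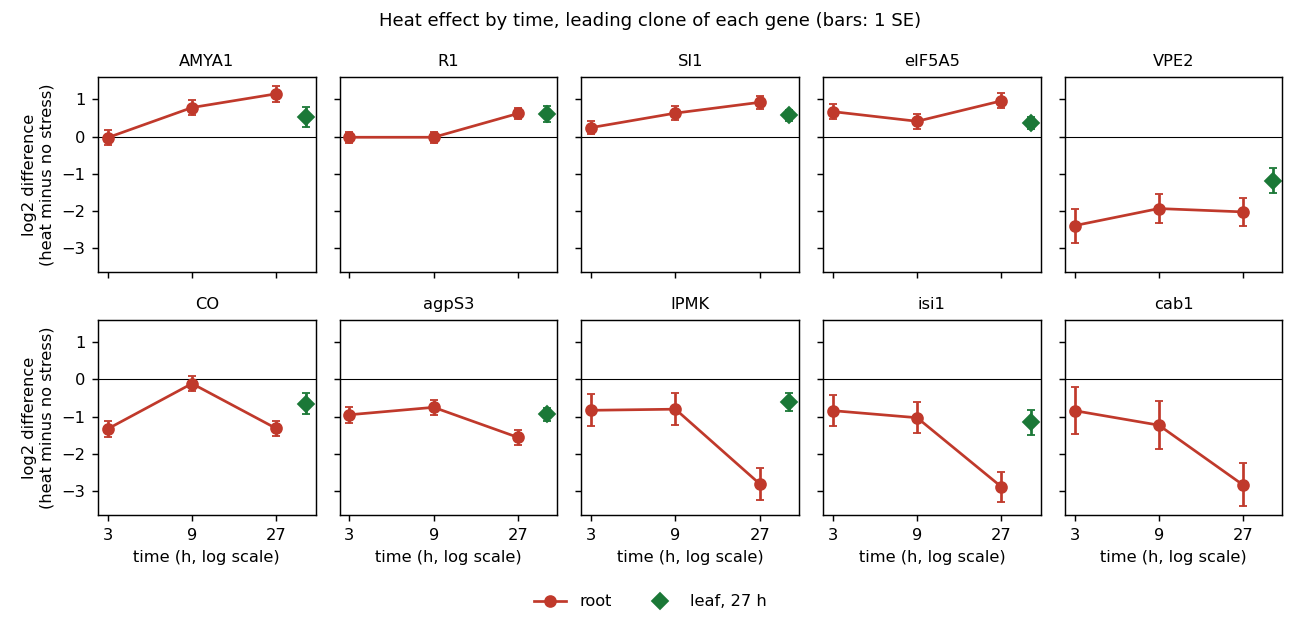
Log2 difference between heat and no stress (vertical axis, bars of 1 SE) for the leading clone of 10 genes in root at 3, 9 and 27 h (horizontal axis, log scale), with the leaf value at 27 h as a diamond where it was tested. VPE2 lies between -2.40 and -1.94 at all 3 times, and IPMK lies at -0.83 and -0.80 at 3 h and 9 h and at -2.81 at 27 h.

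In leaves of heated plants at 27 h, 66 of 9934 clones (0.664%) were called. The direction in leaf was the same for 91.6% of the clones higher in root and 90.3% of those lower, where 70.1% of all clones tested in both had the same sign. For these clones, chosen by their call in root, the medians in leaf were 0.25 and -0.28. A direct test of root against leaf called 22 of 8764 clones (0.251%), 7 higher and 15 lower in root. Among them were 2 named genes. IPMK differed by -2.81 in root and -0.61 in leaf (difference of effects -2.20 ± 0.52, adjusted p 0.048), and SGA clone 2 by -2.67 in root and 0.22 in leaf (-2.88 ± 0.67, adjusted p 0.048). Without heat replicate 1 of the root this test called none by limma, with 444 clones at an unadjusted p under 0.05, and without heat replicate 3 of the root it called 108. agpS3 fell in both tissues, by 1.56 in root and 0.94 in leaf, and so did Lea, by 0.87 and 0.99. The cab1 clones, PSBO and SHMT had too few leaf values for a test.

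Roots at 4 °C for 27 h gave a second set of comparisons against the same 3 no-stress arrays, so both differences share them, and heat was set against cold by the direct contrast of their arrays. That contrast called 4182 of 8875 clones (47.1%), 2042 higher (23%) and 2140 lower (24.1%) in heat. CO differed by -1.32 in heat and 2.20 in cold, and heat minus cold was -3.52 ± 0.21 (adjusted p 3.21e-13). NAC2 differed by -1.07 in heat and 2.47 in cold (heat minus cold -3.54 ± 0.34, adjusted p 2.26e-09). In the methionine list 15 of 22 clones were lower in heat than in cold and 1 was higher. Among its lower members were SAMDC clone 8, at -0.80 in heat and 1.55 in cold, and the leading MS clone, at -0.97 in heat and 0.86 in cold. SI1 went the other way, at 0.92 in heat and -0.67 in cold (heat minus cold 1.58 ± 0.18), and eIF5A5 was at 0.96 and -0.33 (1.29 ± 0.20). Antioxidant clones were higher in heat than in cold in 5 of 8 cases and lower in none.

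The median log2 ratio of the light-harvesting and photosystem clones was -3.01, -0.67 and -0.99 on the heat arrays, against -2.42, -2.13 and -1.36 on the cold arrays. The leading cab1 clone was at -2.84 in heat and -3.79 in cold, and heat minus cold was 0.95 ± 0.58 (adjusted p 0.184). Heat and cold differed for 47.1% of all clones (24.1% lower in heat) and for 2 of the 14 photosystem clones, both lower in heat. They were PSBR clones 1 and 4, at 0.20 and 0.09 in heat and at 2.3 and 2.11 in cold. Cold against no stress called 39.1% of clones. GBSS fell in both, by 1.38 in heat and 0.86 in cold (heat minus cold -0.53 ± 0.21, adjusted p 0.0398).

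**Figure D5:**
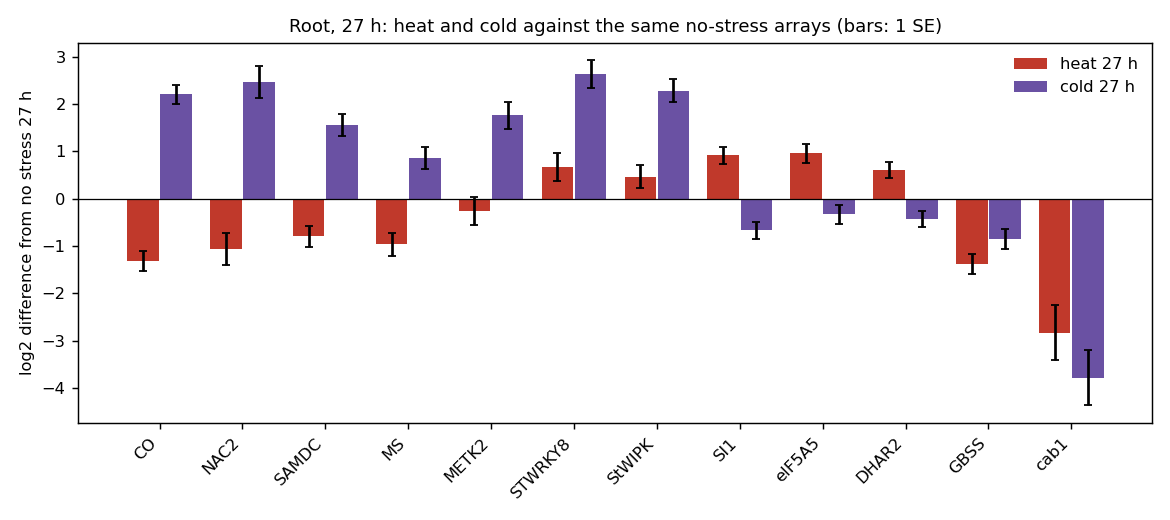
Log2 difference from no stress at 27 h (vertical axis, bars of 1 SE) in heated roots (left bar of each pair) and cold roots (right bar) for 12 genes, with the same no-stress arrays behind both. CO and NAC2 lie below 0 in heat and above 2 in cold, and SI1, eIF5A5 and DHAR2 lie above 0 in heat and below 0 in cold.

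As the background of the assay, no-stress roots were set against 0, where query and reference were both unstressed roots. This called 137 of 9336 clones (1.47%), 35 higher and 102 lower, and 49, 13 and 25 without no stress replicate 1, 2 and 3. Of the named clones 4 were among them, 1 each of DHAR, METK1, SS2 and PCAS-1, and none of these clones was called between heat and no stress.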

How the data were processed

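Each deposited value is a log2 ratio of 1 spot on 1 array, with array medians near 0, so processed by the authors before deposit. Their background correction, normalization and spot filter are steps not given in the sources used here. From 32448 spots, 2 spots per clone were averaged by a layout of 48 blocks inferred from the files, which gave 11037 clones with a value. Names came from the platform annotation and the RefSeq table of SolTub_3.0, in which all 430 gene identifiers were found. Of the printed clones 815 had 1 gene, 90 had several and were not named, and 363 had a gene name.

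Heat and no stress were compared with limma 3.58.1 (R 4.3.3) over all 36 root arrays in 12 groups, without a block, on clones with values on at least 2 arrays of each group. Benjamini-Hochberg adjusted p under 0.05, two-sided, was called, and SE is that of the fit. The labels state independent runs but not which run a replicate is from. The p-values of root comparisons rest on the spread between samples within groups, pooled over all 36 root arrays and not only the arrays compared. Root against leaf was fitted on the arrays of both tissues. Tested on data simulated for the main comparison (8975 clones), the script recovered 24%, 86%, 96% and 100% of changes of 0.5, 1, 2 and 3 on the log2 scale. There were 50 changed clones of each size, and 5 unchanged clones were called. The simulated noise was independent between arrays, with 1 spread per clone for all root arrays. It therefore does not show how the fit performs where arrays differ in spread, as heat replicate 1 did.

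The leading clone of a gene had most values over the root arrays. Named were the 12 highest and 12 lowest genes among called leading clones, up to 3 members per direction and 2 uncalled members of each list. The members, lists and rules were chosen with earlier results of these data known. SAMDC, FBPase, dpeP, DHAR, LPD2, Aconitase, HXKRP1, STK, PIN-II and PCAS-1, other clones of named genes, the starch subgroups and the clones without a name were picked after their values were seen. The number of arrays limits precision. Alternatives were the arrays in the fit, a replicate block, array weights, centring, scaling, missing values, single spots, robust priors, heat against 0 and leaving out each array.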

Additional observations from a re-analysis of the deposited data

Results flagged for a closer look

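Tests of a difference between heat effects called 15 clones between 27 h and 3 h in root, 3 between 27 h and 9 h, and 22 between root and leaf at 27 h. Clones 142632 and 162580, without annotation, were called in all 3 tests. They differed between heat and no stress by -2.11 and -1.93 in root at 27 h, by -0.11 and -0.21 at 3 h, by -0.32 and -0.25 at 9 h, and by -0.77 and -0.59 in leaf. SGA clone 2 differed by -2.88 and IPMK by -2.20 between root and leaf.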

How the results depend on the processing

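Without heat replicate 1, 734 clones were called between heat and no stress, and the count ran up to 2260 over the 6 single arrays left out. It was 123 with only these 6 arrays fitted, 3661 for heat arrays against 0, and between 1353 and 2004 under the other alternatives. The 15 clones between 27 h and 3 h became 1 with only the arrays of the contrast, 42 with array weights, 4 with single spots and 3 to 92 with an array left out. The 3 between 27 h and 9 h became 1 with only the arrays of the contrast, 7 with array weights, 14 with equalized scales and 3 to 30 with an array left out. The 22 between root and leaf became 0 with only the arrays of the contrast and 0 with equalized scales (limma, 588 and 669 at an unadjusted p under 0.05), 9 with single spots and 0 to 108 with an array left out. Heat minus cold called 2602 with only its arrays, 2468 with equalized scales and 3562 to 3957 with an array left out. No stress against 0 called 13 to 49 with an array left out. The photosystem clones that fell numbered 0 with only the 6 arrays, 5 with single spots and 3 to 11 with an array left out. Of 147 clones of the named genes, a DHAR clone not called between heat and no stress turned sign for heat against 0 (0.42). Other uncalled clones also changed sign under some alternatives. Examples are a clone of SS2 (0.17, at lowest -0.29) and the leading TPT clone (-0.16, at highest 0.21). The cause of these shifts was not tested. With a replicate block the counts were 2004 between heat and no stress, 40 between 27 h and 3 h, 5 between 27 h and 9 h, 32 between root and leaf and 4286 between heat and cold. Same-numbered heat and no-stress arrays had deviations correlated at 0.17, 0.24 and -0.05, and heat replicate 3 correlated best with no stress replicate 1, so the numbers were not taken as a pairing.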
